A study of Mus musculus with 12 samples.

Results

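Bone morphogenetic proteins (BMPs), TGF-betas, activins and myostatin are secreted ligands that bind paired type I and type II serine/threonine kinase receptors. The activated receptors phosphorylate Smad transcription factors, which enter the nucleus with Smad4. Extracellular antagonists hold the ligands away from the receptors, latent TGF-beta binding proteins store TGF-beta in the matrix, and the inhibitory Smads and the Smurf ubiquitin ligases act on the receptors and Smads inside the cell. In C2C12 mouse myoblasts, added BMP is known to block muscle differentiation and to induce Id genes, whose products hold the E proteins that MyoD needs as partners. Activins, TGF-betas and myostatin are also known as inhibitors of muscle differentiation, and follistatin (Fst), which binds activins and myostatin, as a promoter of muscle growth.

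A list of 54 genes of these pathways was read across the series by gene name, and 52 of them had a row among the 26967 genes listed at either day. The 2 names with no row are not analysed here. The genes fall into 8 roles: BMP and GDF ligands (6 genes with a row), TGF-beta, activin and myostatin ligands (7), extracellular antagonists and modulators (8), latent TGF-beta binding proteins (4), receptors and co-receptors (13), Smads (8), Smad ubiquitin ligases (2) and Id targets (4).

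The study sequenced mRNA of C2C12 cells, an immortalized mouse myoblast line, in 12 libraries, 3 for each of 4 groups. KI cells carry a K176R knock-in in both copies of Pgam2, the muscle phosphoglycerate mutase, which replaces a lysine that can be modified by SUMO. WT cells are the C2C12 line without the edit. Each genotype was sampled at d4, after growth in low-serum differentiation medium with horse serum, and at d0, in growth medium with fetal bovine serum. The groups are thus KI d4, WT d4, KI d0 and WT d0. The KI cells are 1 edited clone, so that the edit and other properties of that clone cannot be told apart, and the study's methods call the replicates biological, with a smaller number per condition than the libraries used here, without saying whether they were separate cultures. The p-values reflect how far these libraries spread, which may be technical.

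The libraries held between 16098407 and 21412560 reads in listed genes. Pgam2 itself was at 10.6 ± 0.337 FPKM in KI cells and 128 ± 5.09 FPKM in WT cells at d4 (SD, n = 3 each), and at 5.14 ± 1.45 FPKM in KI cells and 3.01 ± 0.253 FPKM in WT cells at d0. These are levels of the transcript and do not show the edit. Of 9 myoblast markers, 1 was called lower (Pax7) and 1 higher (Myf5) in KI cells at d4, and 2 lower (Pax7 and Cdon) and 1 higher (Msc) at d0. Myod1 was at 94.6 FPKM in KI cells and 120 FPKM in WT cells at d4 and at 32.1 FPKM in KI cells and 38.3 FPKM in WT cells at d0, and was not called. Pax7 averaged 0.0873 FPKM in KI cells and 4.05 FPKM in WT cells at d4, and Myf5 35.5 FPKM in KI cells and 13.6 FPKM in WT cells. Msc averaged 10.3 FPKM in KI cells and 3.52 FPKM in WT cells at d0. KI d0 replicate 3 had 685 FPKM of the nuclear RNA Rn7sk, against 3.52 and 24.1 FPKM in the other KI d0 libraries. The d0 counts are therefore also given without it. Over all genes, replicate 1 lay furthest from the others at d0 in both genotypes. The chi-square per degree of freedom between reads of 2 KI d0 libraries was 23.5 and 17.1 with replicate 1 and 14.0 without. In WT d0 libraries it was 19.1 and 19.8 with replicate 1 and 12.1 without. At d4 it was 3.30 to 6.84 over the pairs. Counts without each library in turn are given below. All 10 genes of a myotube list were called lower in KI cells at d4. Their summed level was 979 to 1077 FPKM in KI libraries and 6286 to 6513 FPKM in WT libraries. At d0, 8 of 9 tested were called lower, with sums of 10.6 to 12.9 FPKM in KI libraries and 81.6 to 118 FPKM in WT libraries. Myh4 and Myh8 at d4, and Myh4, Myh8 and Ckm at d0, passed the filter on low genes through the WT libraries alone. So did Pax7 at both days. Such genes could only be called lower. For each marker list, the shares of all genes tested were 5.98% lower and 1.76% higher at d4, and 9.21% lower and 3.03% higher at d0. Of a list of fibroblast markers, 7 of 8 tested were called lower in KI cells at d0, with sums of 277 to 307 FPKM in KI libraries and 718 to 772 FPKM in WT libraries. At d4, 3 of 10 were called lower and 1 higher (Ly6a), with sums of 1860 to 1924 FPKM in KI libraries and 961 to 977 FPKM in WT libraries. Without Ly6a, the d4 sums were 653 to 665 FPKM in KI libraries and 692 to 718 FPKM in WT libraries, so that the direction turned. Pecam1, Cdh5, Tie1 and Hbb-bs, of the list for endothelium and blood, were at 0 in all KI d0 libraries, while that list summed to 40.3 to 44.7 FPKM in KI libraries and 3.98 to 6.35 FPKM in WT libraries at d0, mostly from Hba-a1. The 2 genes of that list tested at d0, Hba-a1 and Ikzf1, were called higher in KI cells. Ikzf1 was too low to be tested between the days in WT cells. Of a list for osteoblasts and chondrocytes, 1 of 3 tested (Spp1) was called lower in KI cells at each day. That list summed to 224 to 234 FPKM in KI and 509 to 527 FPKM in WT libraries at d4. At d0 it summed to 376 to 441 FPKM in KI and 1082 to 1415 FPKM in WT libraries. The part of these other differences in the results on the pathway was not tested, and in bulk RNA fewer cells of a type and less RNA per cell cannot be told apart.

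Shown here are the 250 bases before the start of 4 members that were lower in KI cells at d0 and whose deposited gene starts lie within 2 bases of a RefSeq start (sequences from RefSeq, GRCm38.p6, the build of mm10). They show the DNA just before a ligand of each branch (Bmp4, Inhbb), an antagonist (Grem1) and an inhibitory Smad (Smad6). Capitals mark the letters CAGAC, a Smad binding box, GGCGCC, a GC-rich box of BMP-responsive genes, and CANNTG, an E-box that MyoD can bind, on either strand. Matches of the different motifs could overlap and were counted for each motif.
Bmp4, chr14:46390670-46390919, minus strand: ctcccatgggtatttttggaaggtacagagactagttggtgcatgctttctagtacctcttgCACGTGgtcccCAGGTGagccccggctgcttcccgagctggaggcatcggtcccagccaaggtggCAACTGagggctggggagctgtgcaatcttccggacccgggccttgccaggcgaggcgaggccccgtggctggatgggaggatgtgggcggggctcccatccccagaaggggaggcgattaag
Inhbb, chr1:119422249-119422498, minus strand: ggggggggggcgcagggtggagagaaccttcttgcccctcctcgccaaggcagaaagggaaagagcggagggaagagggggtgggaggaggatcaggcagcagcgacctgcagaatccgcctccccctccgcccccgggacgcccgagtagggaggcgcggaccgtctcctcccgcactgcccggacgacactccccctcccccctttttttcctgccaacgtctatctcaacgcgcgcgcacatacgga
Grem1, chr2:113758649-113758898, minus strand: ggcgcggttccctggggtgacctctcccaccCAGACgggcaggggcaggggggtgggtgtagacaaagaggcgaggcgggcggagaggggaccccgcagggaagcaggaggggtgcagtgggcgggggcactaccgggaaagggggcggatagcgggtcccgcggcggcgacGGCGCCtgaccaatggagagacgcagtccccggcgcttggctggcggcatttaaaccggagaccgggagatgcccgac
Smad6, chr9:64022060-64022309, minus strand: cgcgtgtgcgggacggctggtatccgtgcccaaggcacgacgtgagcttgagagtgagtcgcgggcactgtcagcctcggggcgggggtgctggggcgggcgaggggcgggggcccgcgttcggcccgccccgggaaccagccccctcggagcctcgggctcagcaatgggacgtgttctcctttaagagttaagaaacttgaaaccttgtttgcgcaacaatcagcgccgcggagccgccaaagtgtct

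The Bmp4 stretch held 3 E-boxes and neither of the other motifs, the Grem1 stretch held 1 CAGAC and 1 GGCGCC, and the Inhbb and Smad6 stretches held none of the 3 motifs. Over the 48 stretches of the 38 members found in the RefSeq table, 45.8% held CAGAC, 27.1% held GGCGCC and 45.8% held CANNTG. Over all 32851 stretches of the table the shares were 42.2%, 9.59% and 66.2%. Over the 8 stretches of members called lower in KI cells at d0, they were 37.5%, 12.5% and 25%. Some members have more than 1 stretch, and no difference of these shares was tested. A match is a description of letters and says nothing of whether a factor binds there.

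Genotypes were compared within each day, and a gene was called when its adjusted p was under 0.05 and its absolute log2 fold change above 1. At d4 the test was limma on log2(FPKM + 1), a scale that understates the change of low genes, and at d0 edgeR on read counts. At d4, 44 of the 52 members were tested, of which 11 were called lower in KI cells and 0 higher. Over all 13252 genes tested, 5.98% were called lower and 1.76% higher, or 7.73% in either direction. The other 8 members were at low levels or not listed. Of the 11, Bmp4 and Gdf5 passed the filter through the WT libraries alone, as did Bmp4 at d0. Such genes could only be called lower. The median log2 fold change of the 44 members was -0.25, and that of all genes tested 0.00. With the adjusted p alone and no threshold on the fold, 23 members were lower and 11 higher (34 in all), where 29.3% of all genes were lower and 26.4% higher (55.7% in all). With edgeR on reads worked back from the FPKM values, 15 of 46 members were called lower and 0 higher, where 10.8% of all genes were called lower and 5.09% higher, or 15.9% in either direction. At d0, 44 members were tested, of which 11 were called lower in KI cells and 1 higher, where 9.21% of all 13920 genes tested were called lower and 3.03% higher, or 12.2% in either direction. The median of the members was -0.52, and that of all genes -0.02. On the adjusted p alone, 28 members were lower and 3 higher (31 in all), where 23.9% of all genes were lower and 20.4% higher (44.3% in all). Without replicate 3 of KI d0, 10 members were called lower and 1 higher. The 7 members called lower at both days were Bmp4, Inhbb, Grem1, Fst, Fstl1, Ltbp2 and Rgma, which is 63.6% of the 11 called lower at d4 and 63.6% of the 11 called lower at d0. Over all genes, 291 were called lower at both days, which is 36.7% of the 792 called lower at d4 and 22.7% of the 1282 called lower at d0, and the difference of these shares from the members' was not tested.

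**Figure D1:**
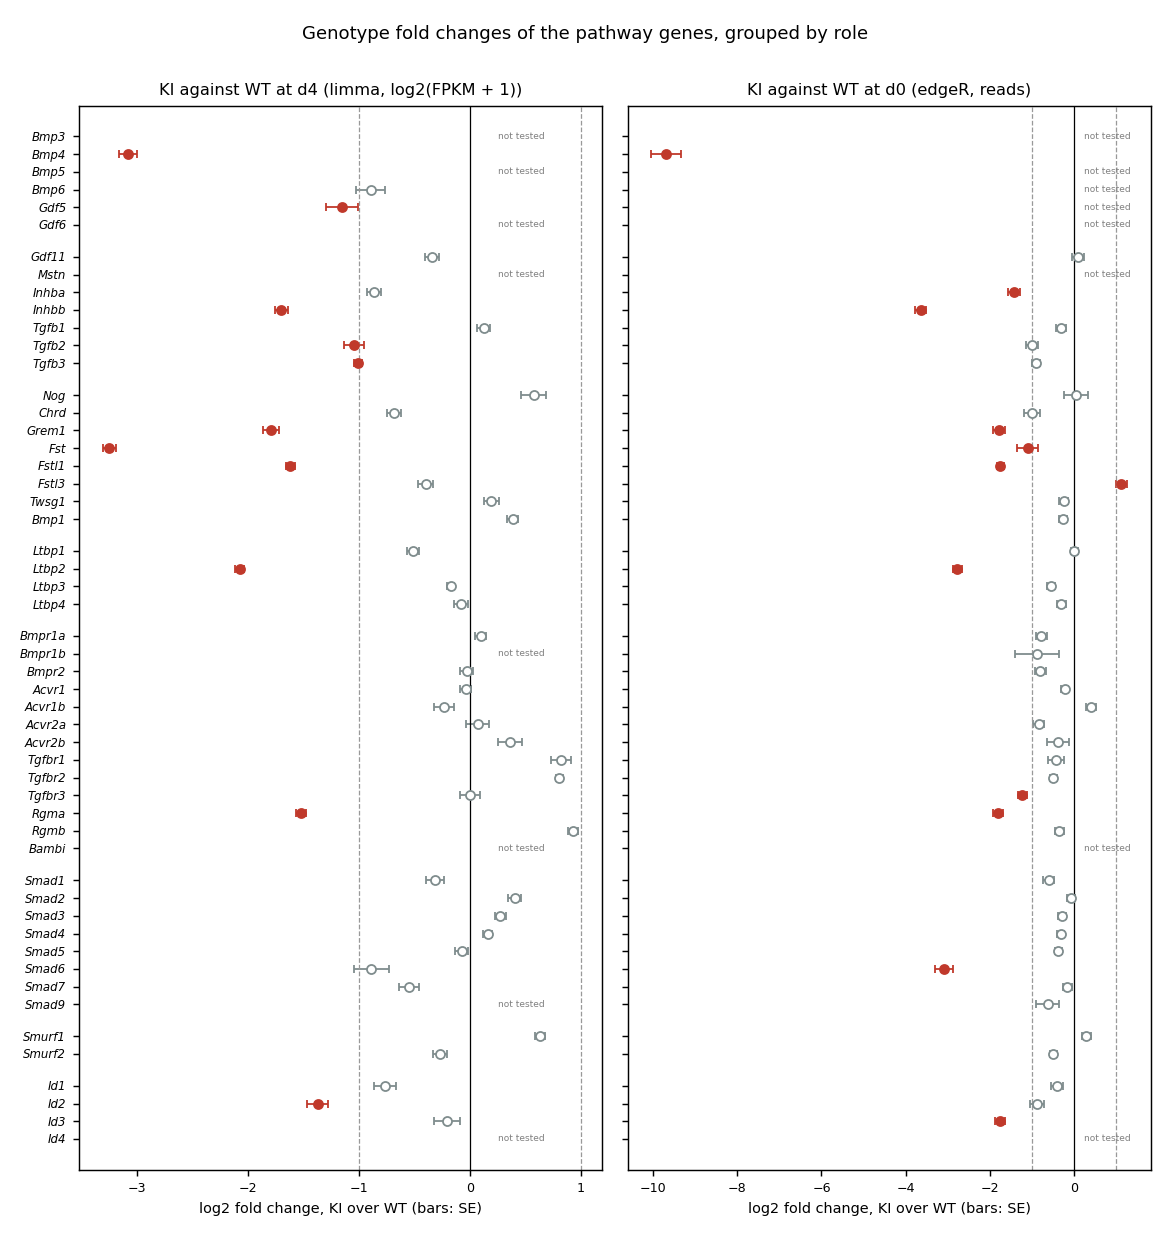
Log2 fold change of KI over WT cells for each member at d4 (left, limma on log2(FPKM + 1)) and d0 (right, edgeR on reads), with bars for the standard error and dashed lines at -1 and 1. Filled red points are called genes (11 at d4 and 12 at d0), which lie left of 0 apart from Fstl3 at d0, open points are genes tested and not called, and each panel has its own scale.

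The BMP and GDF ligand role held 8 names, of which 6 had a row. Among those with a row, Bmp4 was the one that WT cells expressed most, and it was close to absent from KI cells. Bmp4 (ENSMUSG00000021835, chr14:46383520-46390669, minus strand) was at 0.0440, 0.0616 and 0 FPKM in KI cells at d4, against 7.32, 8.44 and 7.52 FPKM in WT cells. At d0 it was at 0, 0.0234 and 0.0256 FPKM in KI cells, against 13.9, 13.4 and 19.4 FPKM in WT cells. The groups did not overlap at either day. Here and below, the share of all genes whose groups do not overlap was not counted. A lack of overlap thus does not set a member apart from other genes. In reads, KI libraries held 5 and WT libraries 951 at d4, and KI libraries held 2 and WT libraries 2294 at d0, so that WT cells had 999-fold more at d0, with an exact 95% interval of 276 to 8252 that covers counting error only. The log2 fold change was -3.08 ± 0.08 (SE) at d4, with an adjusted p of 1.45e-07, and -9.69 ± 0.35 at d0, with an adjusted p of 3.02e-09. With edgeR on reads the d4 value was -7.56 ± 0.30. Bmp4 passed the filters of both days through the WT libraries alone, so it could only be tested as lower in KI cells. At d4 it was not tested when any WT d4 library was left out.

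The other ligands with a row in the BMP and GDF role were low in each group where they were listed. Gdf11 was counted with the TGF-beta, activin and myostatin ligands. Gdf5, a ligand of joint and cartilage development, was not listed at d0 and had 0.0852, 0.0597 and 0.130 FPKM in KI cells at d4, against 1.98, 1.11 and 1.28 FPKM in WT cells. It was called lower in KI cells, at -1.15 ± 0.14, with an adjusted p of 0.000427. Gdf5 passed the d4 filter through the WT libraries alone, so it could only be tested as lower, and this p-value is no support. It was not tested when any WT d4 library was left out. Its exons share 936 bases with Gm15557 on the other strand, a gene with 4 reads in KI and 2 reads in WT libraries at d4. Bmp6 had 1 read in KI libraries and 186 reads in WT libraries at d4, a ratio of WT over KI of 188 with an exact 95% interval of 33.3 to 7462. Its mean was 0.00423 FPKM in KI cells and 0.878 FPKM in WT cells. Its change of -0.89 ± 0.13 on the log2(FPKM + 1) scale missed the threshold on the fold, while edgeR on reads gave -7.17 ± 0.68. Bmp6 also passed the d4 filter through the WT libraries alone. Gdf6 had 0 reads in KI and 28 reads in WT libraries at d4, so that WT was at least 9.43-fold higher, with a floor of 3 reads over the group. Bmp3, at 13 reads in KI and 0 reads in WT libraries at d4, was at least 4.29-fold higher in KI cells, and Bmp5 had 0 reads in KI and 5 reads in WT libraries at d0. The summed level of the listed BMP and GDF ligands was 0.155 to 0.171 FPKM in KI libraries and 9.78 to 10.7 FPKM in WT libraries at d4, and 0.0234 to 0.0285 FPKM in KI libraries and 13.6 to 19.4 FPKM in WT libraries at d0.

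Among the ligands of the TGF-beta, activin and myostatin branch, the inhibin beta genes, whose products pair to form activins, were lower in KI cells at d0, and Inhbb, Tgfb2 and Tgfb3 at d4, while Tgfb1 was not called at either day. Inhbb (ENSMUSG00000037035, chr1:119415465-119422248, minus strand) was at 8.14, 7.28 and 8.27 FPKM in KI cells at d4, against 27.9, 28.9 and 26.7 FPKM in WT cells, and at 1.36, 1.95 and 1.58 FPKM in KI cells at d0, against 19.6, 19.4 and 21.1 FPKM in WT cells. Its log2 fold change was -1.70 ± 0.06 at d4 (adjusted p 5.41e-07) and -3.64 ± 0.14 at d0 (adjusted p 3.37e-09), with no overlap of the groups at either day. Inhba was at 1.8, 1.77 and 1.7 FPKM in KI cells at d4, against 3.93, 4.21 and 3.94 FPKM in WT cells, a change of -0.87 ± 0.06 that was not called on this scale but was called with edgeR on reads, at -1.19 ± 0.10. At d0, Inhba was at 2.82, 2.25 and 2.48 FPKM in KI cells, against 5.72, 7.68 and 6.38 FPKM in WT cells, and was called lower at -1.42 ± 0.14 (adjusted p 9.55e-06).

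Tgfb3 was the most abundant ligand of the list in both genotypes at d4. It was at 32.0, 30.7 and 31.8 FPKM in KI cells at d4, against 62.0, 64.7 and 66.3 FPKM in WT cells, and its change of -1.01 ± 0.04 (adjusted p 9.22e-07) lay just past the threshold. At d0 it was at 11, 13 and 12.1 FPKM in KI cells, against 23.4, 22.2 and 20.9 FPKM in WT cells, a change of -0.90 ± 0.10 that lay just short of it. Tgfb2 was at 3.18, 2.61 and 2.71 FPKM in KI cells at d4, against 7.42, 7.27 and 6.02 FPKM in WT cells, with a change of -1.04 ± 0.09 (adjusted p 7.42e-05), and its d0 value of -0.998 ± 0.14 was not called. The groups of both genes were apart at both days, on whichever side of the threshold they fell. Tgfb1 averaged 22.2 ± 0.716 FPKM in KI cells and 20.3 ± 1.45 FPKM in WT cells at d4, and 14.3 ± 1.89 FPKM in KI cells and 17.4 ± 2.27 FPKM in WT cells at d0 (SD, n = 3 each), and its groups overlapped at both days. Gdf11, a ligand close to myostatin, was not called, at 13.1 ± 1.22 FPKM in KI cells and 16.8 ± 0.0639 FPKM in WT cells at d4. Myostatin (Mstn) was near 0, with 0 reads in KI and 27 reads in WT libraries at d4, so that WT was at least 9.09-fold higher.

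The order of the ligands thus differed between the genotypes. At d0, KI cells had Tgfb1 (14.3 FPKM), Tgfb3 (12 FPKM) and Gdf11 (11.9 FPKM) at like levels, with no other ligand above 3 FPKM, and the SDs of 1.89, 1.01 and 0.993 FPKM do not separate these 3. In WT cells at d0, Tgfb3 (22.2 FPKM), Inhbb (20.0 FPKM), Tgfb1 (17.4 FPKM), Bmp4 (15.6 FPKM) and Gdf11 (11 FPKM) led, and the SDs of neighbours in that order overlapped. Bmp4 made up 0.0351% of the summed ligand FPKM in KI cells and 15.9% in WT cells at d0, and Inhbb 3.60% in KI cells and 20.5% in WT cells.

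**Figure D2:**
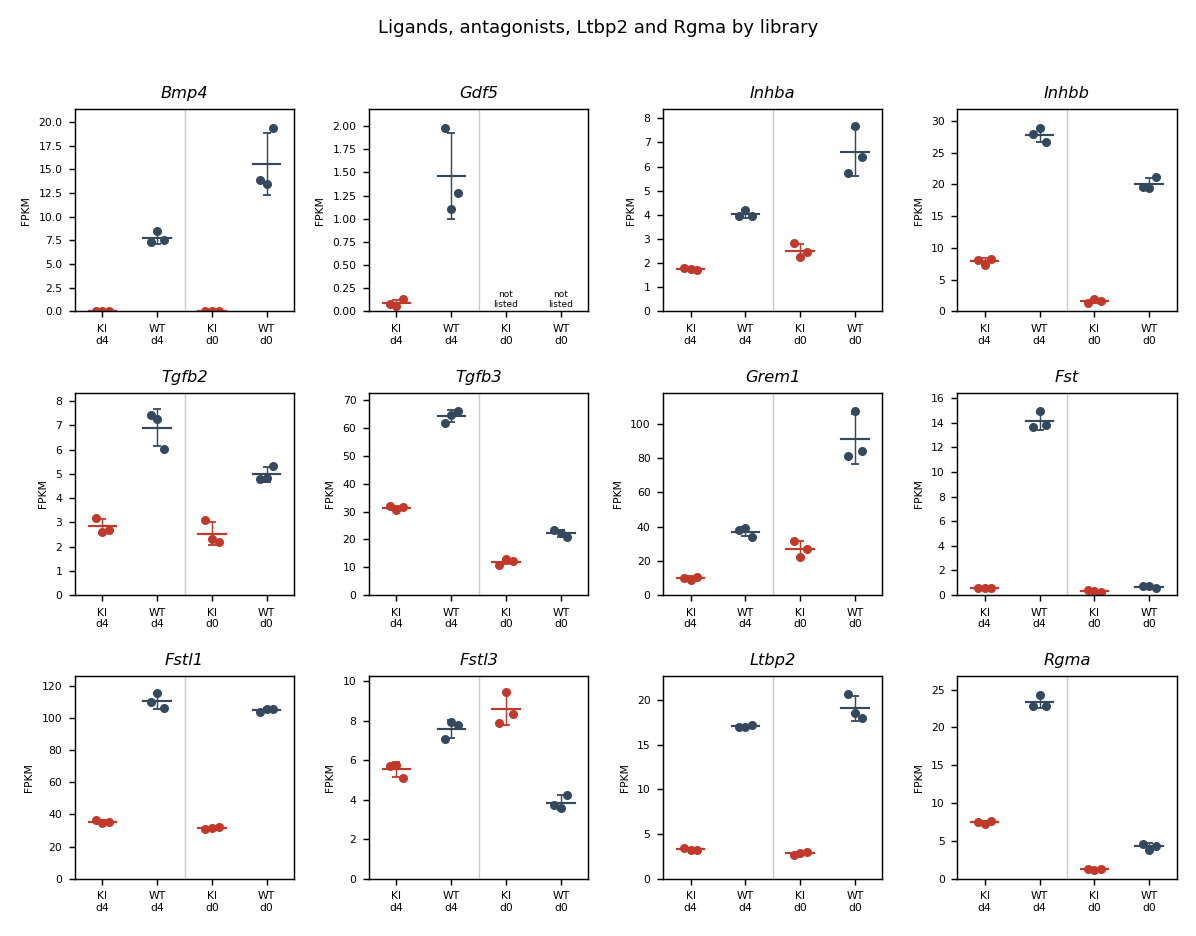
FPKM of 12 members in each library (points), with the group mean (line) and SD (bar, n = 3), KI in red and WT in dark blue, d4 to the left of the vertical line and d0 to its right. FPKM were scaled separately for each day, so heights are comparable within a day. Bmp4 is near 0 in all KI libraries, Fst is at 13.6 to 14.9 FPKM in WT d4 libraries alone, and Fstl3 is the only panel with KI above WT, at d0.

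The extracellular antagonists did not move together. Gremlin (Grem1), which binds BMPs, and the secreted glycoprotein Fstl1 were lower in KI cells at both days, Fst was lower mainly at d4, and Fstl3, which like Fst binds activins, was the member called higher in KI cells at d0. Grem1 (ENSMUSG00000074934, chr2:113746164-113758646, minus strand) was at 10.2, 9.09 and 10.8 FPKM in KI cells at d4, against 38.1, 39.1 and 34.1 FPKM in WT cells, and at 31.9, 22.1 and 26.9 FPKM in KI cells at d0, against 81.4, 108 and 84.2 FPKM in WT cells. The changes were -1.79 ± 0.07 at d4 (adjusted p 1.38e-06) and -1.78 ± 0.15 at d0 (adjusted p 2.57e-06). Fstl1, the most abundant member of the list in WT cells, was at 36.5, 34.4 and 35.3 FPKM in KI cells at d4, against 110, 116 and 106 FPKM in WT cells, and changed by -1.62 ± 0.04 at d4 (adjusted p 1.60e-07) and by -1.75 ± 0.09 at d0 (adjusted p 2.95e-08).

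Fst (ENSMUSG00000021765, chr13:114452290-114458951, minus strand) was at 0.560, 0.613 and 0.606 FPKM in KI cells at d4, against 13.6, 14.9 and 13.8 FPKM in WT cells, so that WT cells had 23.8 times the KI level. The change was -3.25 ± 0.06 on the log2(FPKM + 1) scale (adjusted p 3.43e-08) and -4.57 ± 0.11 with edgeR on reads. At d0, Fst was low in both, at 0.411, 0.309 and 0.238 FPKM in KI cells, against 0.766, 0.701 and 0.567 FPKM in WT cells, and its call there (-1.10 ± 0.26, adjusted p 0.00477) was lost without KI d0 replicate 3 (-0.93) or without WT d0 replicate 1 (-0.98). Fstl3 was at 5.72, 5.78 and 5.10 FPKM in KI cells at d4, against 7.07, 7.95 and 7.76 FPKM in WT cells, and was not called (-0.40 ± 0.07). At d0 it was at 7.90, 9.46 and 8.36 FPKM in KI cells, against 3.74, 3.56 and 4.26 FPKM in WT cells, a change of 1.13 ± 0.13 (adjusted p 3.04e-05). Fstl3 shares 1157 exon bases with Prss57 on the other strand, a gene with 3 reads in KI and 0 reads in WT libraries at d0.

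The BMP antagonists noggin (Nog) and chordin (Chrd) were not called by genotype. Nog was at 4.05, 4.96 and 4.85 FPKM in KI cells at d4, against 2.28, 3.24 and 2.84 FPKM in WT cells, with a log2 fold change of 0.57 ± 0.11, and its groups overlapped at d0. Chrd was at 5.59, 5.18 and 5.25 FPKM in KI cells at d4, against 8.72, 9 and 9.86 FPKM in WT cells, with -0.68 ± 0.06 at d4 and -0.995 ± 0.18 at d0, which lay just short of the fold threshold. Twsg1, which modulates the binding of chordin to BMPs, and Bmp1, a protease that cleaves chordin and procollagens, had fold changes of 0.19 ± 0.07 and 0.39 ± 0.05 at d4.

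Of the latent TGF-beta binding proteins, Ltbp2, which unlike the others does not bind latent TGF-beta, was lower in KI cells. It was at 3.41, 3.20 and 3.25 FPKM in KI cells at d4, against 17.0, 17.0 and 17.1 FPKM in WT cells, and at 2.67, 2.85 and 3 FPKM in KI cells at d0, against 20.7, 18.5 and 18.0 FPKM in WT cells. The changes were -2.07 ± 0.04 at d4 (adjusted p 6.38e-08) and -2.77 ± 0.10 at d0 (adjusted p 2.36e-09). Ltbp1, Ltbp3 and Ltbp4 were not called at either day, with changes of -0.51 to -0.08 at d4 and -0.54 to 0.01 at d0.

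Of the receptors and co-receptors, Rgma was called by genotype at both days and Tgfbr3 at d0. At d4, 1 of 11 receptors and co-receptors tested (9.09%) was called lower, the BMP co-receptor Rgma, against 5.98% of all genes, and the median over the 11 was 0.07. With no fold threshold, 1 was lower and 4 were higher at d4, against 29.3% and 26.4% of all genes. At d0, 2 of 12 were called lower, Rgma and Tgfbr3 (betaglycan, a co-receptor that presents TGF-beta), and the median was -0.63. The 2 are 16.7% of the 12, against 9.21% of all genes called lower. With no fold threshold, 7 of the 12 were lower and 1 was higher at d0, against 23.9% and 20.4% of all genes. Rgma was at 7.53, 7.28 and 7.61 FPKM in KI cells at d4, against 22.9, 24.3 and 22.9 FPKM in WT cells, and at 1.26, 1.17 and 1.29 FPKM in KI cells at d0, against 4.63, 3.81 and 4.34 FPKM in WT cells. Its changes were -1.52 ± 0.04 at d4 (adjusted p 2.52e-07) and -1.81 ± 0.12 at d0 (adjusted p 4.61e-07). Tgfbr3 was at 3.37, 2.83 and 3.67 FPKM in KI cells at d4, against 3.08, 3.22 and 3.5 FPKM in WT cells, where the groups overlapped, and at 1.71, 1.61 and 1.65 FPKM in KI cells at d0, against 3.48, 4.05 and 3.86 FPKM in WT cells, a change of -1.22 ± 0.12 (adjusted p 7.27e-06).

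The TGF-beta receptors Tgfbr1 and Tgfbr2 and the BMP co-receptor Rgmb were the receptor genes with the highest fold changes at d4, below the threshold for a call. Tgfbr2 was at 67.6, 67.8 and 69.6 FPKM in KI cells at d4, against 39.3, 38.4 and 38.2 FPKM in WT cells (0.81 ± 0.03, adjusted p 1.06e-06), and at 16.9, 16.6 and 17.7 FPKM in KI cells at d0, against 24.1, 22.7 and 24.1 FPKM in WT cells (-0.49 ± 0.08). Rgmb was at 36.7, 37.0 and 39.6 FPKM in KI cells at d4, against 18.5, 20.0 and 19.6 FPKM in WT cells (0.93 ± 0.05, adjusted p 3.68e-06), and passed the threshold under quantile normalization. Tgfbr1 averaged 14.6 ± 0.762 FPKM in KI cells and 7.86 ± 1.04 FPKM in WT cells at d4 (0.82 ± 0.09), and its groups overlapped at d0. The groups of all 3 were apart at d4. The BMP receptors Bmpr1a and Bmpr2 were at -0.77 ± 0.13 and -0.80 ± 0.13 at d0, and at 0.10 ± 0.05 and -0.03 ± 0.06 at d4, where their groups overlapped. The pseudoreceptor Bambi and Bmpr1b were under 0.3 FPKM in every library. With edgeR on reads at d4, Bmpr1b was called lower in KI cells as well as Rgma. Bmpr1b was too low to be tested between the days in KI cells.

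None of the Smads that carry the signal was called by genotype, and Smad9 was not tested at d4. The counts by the adjusted p alone include the inhibitory Smads. At d4, 3 of 7 tested were higher and 3 lower, against 26.4% and 29.3% of all genes. At d0, 0 of 8 were higher and 5 lower, against 20.4% and 23.9% of all genes. Smad3 averaged 37.5 ± 1.12 FPKM in KI cells and 30.8 ± 1.66 FPKM in WT cells at d4, and the common partner Smad4 22.3 ± 0.659 FPKM in KI cells and 19.8 ± 0.492 FPKM in WT cells. The log2 fold changes of Smad1, Smad2, Smad3, Smad4 and Smad5 lay between -0.31 and 0.40 at d4 and between -0.60 and -0.07 at d0. The inhibitory Smad6, which acts mainly on BMP signalling, was at 0.416, 0.274 and 0.755 FPKM in KI cells at d4, against 1.29, 1.86 and 2.05 FPKM in WT cells. At d0 it was at 0.433, 0.443 and 0.251 FPKM in KI cells, against 3.63, 2.77 and 3.09 FPKM in WT cells. It was called lower at d0 (-3.08 ± 0.22, adjusted p 7.06e-07), not on the log2(FPKM + 1) scale at d4 (-0.89 ± 0.16), and called at d4 with edgeR on reads (-1.88 ± 0.29). The inhibitory Smad7, which acts on both branches, was not called, at -0.55 ± 0.09 at d4 and -0.16 ± 0.10 at d0. The Smad ligase Smurf1 had 0.63 ± 0.05 at d4 and 0.30 ± 0.10 at d0, and Smurf2 -0.27 ± 0.06 and -0.49 ± 0.09.

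The Id genes, the role listed as targets of BMP signalling, did not all follow the same course. By the adjusted p alone, all 3 tested were lower in KI cells at d0 and 2 at d4. Against these stand 23.9% and 29.3% of all genes. Their summed level was 18.1 to 23.4 FPKM in KI libraries and 30.0 to 34.6 FPKM in WT libraries at d4. At d0 it was 36.3 to 44.7 FPKM in KI libraries and 74.5 to 97.4 FPKM in WT libraries. Id3 (ENSMUSG00000007872, chr4:136143497-136145755, plus strand) was at 15.3, 14.2 and 10.9 FPKM in KI cells at d4, against 14.4, 15.3 and 16.8 FPKM in WT cells, so that the groups overlapped (-0.20 ± 0.12). At d0 it was at 13.9, 16.5 and 15.5 FPKM in KI cells, against 57.9, 49.7 and 44.6 FPKM in WT cells, a change of -1.75 ± 0.12 (adjusted p 3.40e-07). Id2 (ENSMUSG00000020644, chr12:25093799-25097140, minus strand) had the opposite course. It was at 0.811, 0.606 and 0.645 FPKM in KI cells at d4, against 3.77, 3.29 and 3.04 FPKM in WT cells, and was called lower (-1.37 ± 0.09, adjusted p 1.93e-05, and -2.28 ± 0.22 with edgeR on reads). At d0 it was at 4.37, 4.36 and 4.46 FPKM in KI cells, against 8.37, 9.5 and 5.81 FPKM in WT cells (-0.87 ± 0.17), below the threshold. Id1 was at 7.24, 8.20 and 6.57 FPKM in KI cells at d4, against 11.8, 13.1 and 14.7 FPKM in WT cells (-0.77 ± 0.10), and at 18.0, 23.8 and 23.9 FPKM in KI cells at d0, against 31.1, 30.3 and 24.0 FPKM in WT cells (-0.40 ± 0.14), and was not called at either day. Id4 was near 0, with 7 reads in KI and 7 reads in WT libraries at d4, and 11 reads in KI and 6 reads in WT libraries at d0.

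**Figure D3:**
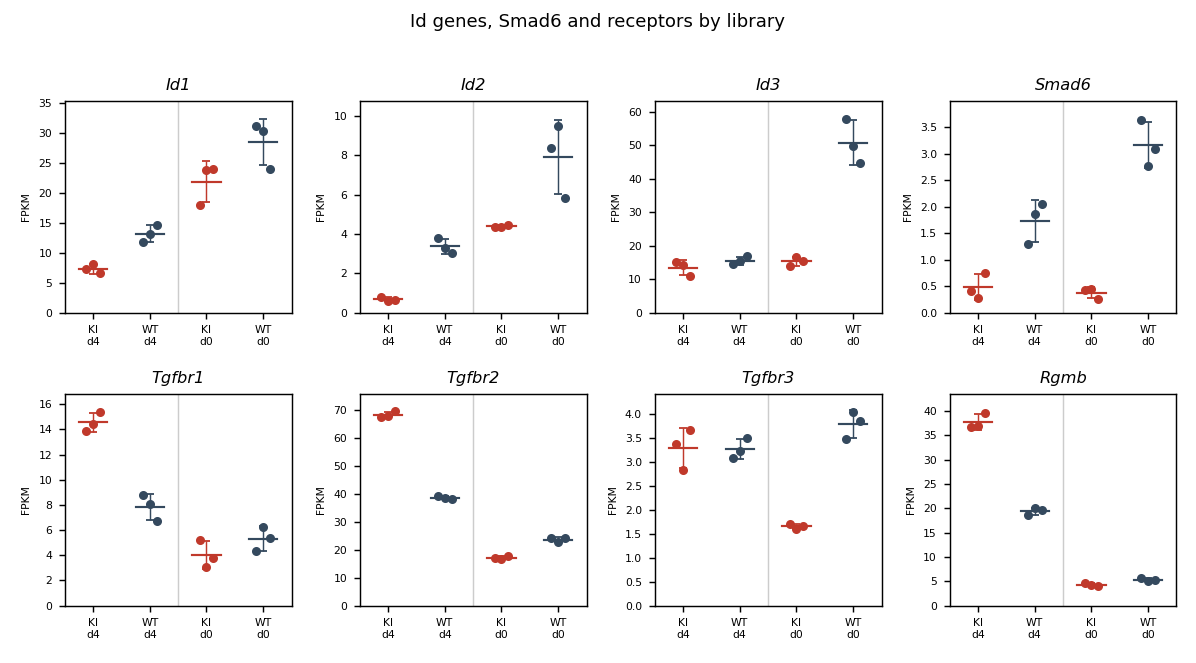
FPKM of Id1, Id2, Id3, Smad6, Tgfbr1, Tgfbr2, Tgfbr3 and Rgmb in each library (points), with the group mean (line) and SD (bar, n = 3), KI in red and WT in dark blue, d4 left of the vertical line and d0 right of it. Heights are comparable within a day. Id3 differs between the genotypes at d0 (KI 13.9 to 16.5 FPKM, WT 44.6 to 57.9 FPKM) and overlaps at d4, and Tgfbr2 is higher in KI at d4 and lower at d0.

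The change by d4 was then compared within each genotype, with edgeR on reads, since FPKM of the 2 days are on separate scales. In KI cells, 42 members were tested, of which 15 rose and 6 fell, where 17.3% of all genes tested rose and 17.1% fell (34.4% in all). By the adjusted p alone, 23 members were higher and 10 lower (33 in all), where 36.8% of all genes were higher and 38.4% lower (75.2% in all). In WT cells, 45 were tested, of which 8 rose and 6 fell, where 12.6% of all genes rose and 13% fell (25.6% in all). Of the 8, Bmp6 passed the filter through the WT d4 libraries alone, so it could only be tested as rising. Without a fold threshold, 20 members were higher and 14 lower (34 in all), where 29.9% of all genes were higher and 32.6% lower (62.6% in all). Of the receptors and co-receptors, 9 of 11 rose in KI cells and 2 of 12 (Rgma and Rgmb) in WT cells. These counts depend on the fold threshold, since with the adjusted p alone 9 of 11 were higher in KI cells and 7 of 12 in WT cells. Tgfbr2 had a log2 fold change of 2.06 ± 0.07 in KI cells and of 0.77 ± 0.07 in WT cells, and Tgfbr1 of 1.91 ± 0.14 in KI cells and of 0.62 ± 0.13 in WT cells. Rgmb rose in both, by 3.20 ± 0.08 in KI cells and by 1.93 ± 0.08 in WT cells. Fst had 0.95 ± 0.28 in KI cells, under the threshold, and rose by 4.45 ± 0.13 in WT cells (adjusted p 3.71e-14). Id3 had -0.12 ± 0.12 in KI cells and -1.64 ± 0.11 in WT cells. Id2 had -2.61 ± 0.18 in KI cells and -1.16 ± 0.17 in WT cells, so that it passed the thresholds in both. Chrd, Rgma, Tgfb3 and Grem1 passed the thresholds in both genotypes, with no interaction called. Chrd rose by 2.86 ± 0.12 in KI cells and by 2.67 ± 0.13 in WT cells, Rgma by 2.65 ± 0.10 in KI cells and by 2.52 ± 0.09 in WT cells, and Tgfb3 by 1.45 ± 0.08 in KI cells and by 1.60 ± 0.08 in WT cells, while Grem1 had -1.37 ± 0.12 in KI cells and -1.23 ± 0.11 in WT cells.

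The interaction term, the change by d4 in KI cells minus that in WT cells, tests whether the genotype difference itself differed between the days. Of 45 members tested, 8 had a positive and 4 a negative term past the thresholds, where 8.68% of all 15114 genes tested were positive and 7.95% negative (16.6% in all). With the adjusted p alone, 20 members were positive and 8 negative (28 in all), where 21.9% of all genes were positive and 23.3% negative (45.2% in all). The positive terms were those of Inhbb (1.78 ± 0.14, adjusted p 4.55e-09), Id3 (1.51 ± 0.17, adjusted p 5.64e-07), Tgfbr1, Tgfbr2 and Rgmb (each 1.27), Tgfbr3 (1.19 ± 0.16), Smad6 (1.16 ± 0.42) and Acvr2b (1.12 ± 0.34), an activin type II receptor at 1.14 FPKM or less on average in every group. The negative terms were those of Fst (-3.51 ± 0.26, adjusted p 2.29e-09), Fstl3 (-1.62 ± 0.16, adjusted p 1.46e-07), Id2 (-1.46 ± 0.26, adjusted p 0.000148) and Bmp6 (-4.67 ± 1.88, adjusted p 0.0491), which rests on few reads. Bmp6 had 1 read in KI and 186 reads in WT libraries at d4, and 2 and 16 reads at d0. It passed the filter through the WT d4 libraries alone, so its term is no support. Of the receptors and co-receptors, 5 of 12 had a positive term and 0 a negative one. The terms of Bmp6, Smad6 and Acvr2b were lost when single libraries were left out: that of Acvr2b without KI d4 replicate 1 or WT d0 replicate 1 (0.98 for each), that of Smad6 without KI d4 replicate 3 (0.72), WT d4 replicate 1 (0.98), KI d0 replicate 3 (0.93) or WT d0 replicate 1 (adjusted p 0.0537), and that of Bmp6 without 8 of the 12 libraries, with the smallest value, -1.93, without KI d0 replicate 1. Without KI d0 replicate 3, 8 positive and 4 negative terms were called.

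**Figure D4:**
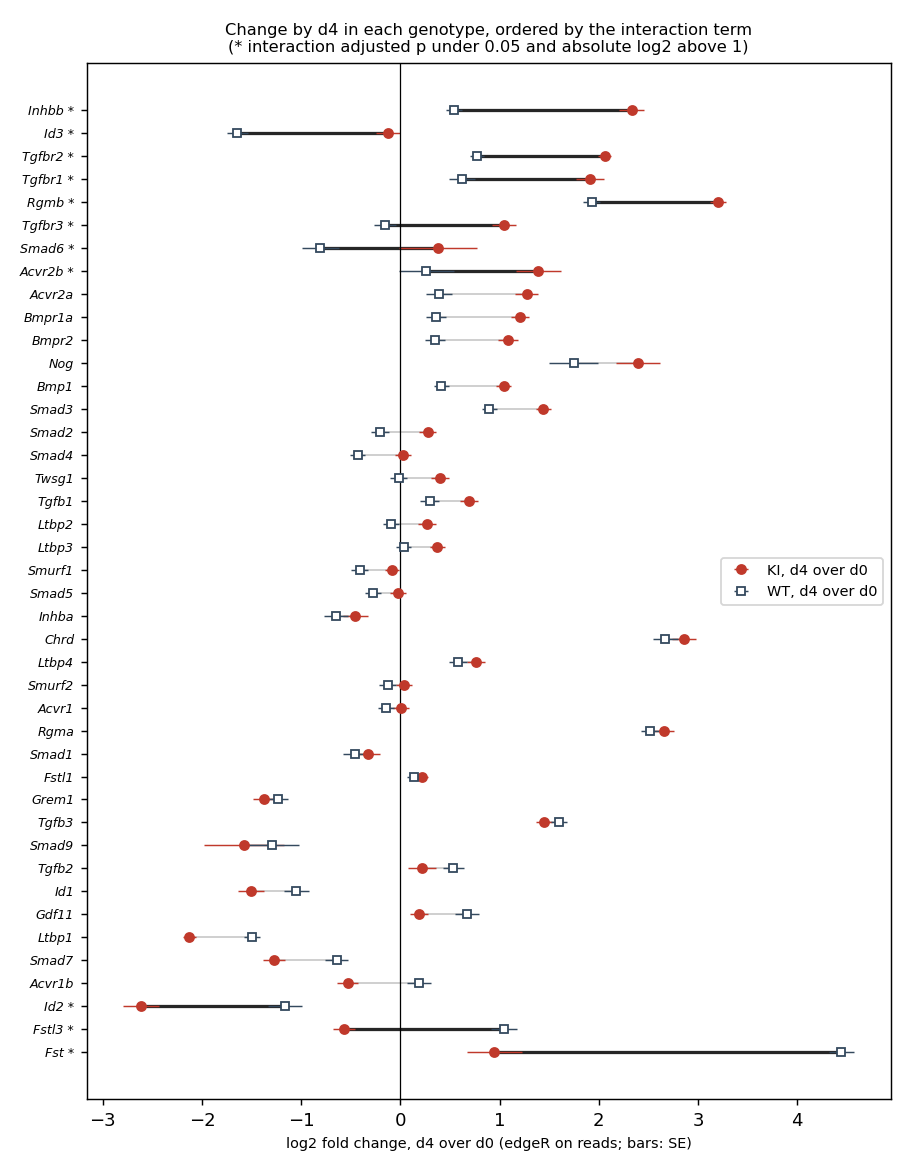
Log2 fold change by d4 over d0 for 42 members in KI cells (red circles) and WT cells (open dark blue squares), with bars for the standard error, ordered by the interaction term. A dark line and an asterisk mark interaction terms past the thresholds, which among the members drawn run from Fst at the bottom (0.95 in KI, 4.45 in WT) to Inhbb at the top (2.33 in KI, 0.54 in WT). Bmp6, not tested between the days in KI cells, is not drawn.

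Further genes of the pathway were read from a wider list of 81, of which 67 had a row. At d4, 46 were tested, with 10 called lower and 0 higher in KI cells. At d0, 49 were tested, with 12 called lower and 2 higher (Gdf15 and Msx2). Ranbp3l, Lrrc32 and Tll1 had 2, 2 and 0 reads in KI libraries at d0, and Lrrc32 had 2 at d4. These passed the filters there through the WT libraries alone, so they could only be called lower. The shares over all genes were those given above. Hemojuvelin, listed as Hfe2, a muscle BMP co-receptor of the same family as Rgma, averaged 25 ± 1.89 FPKM in KI cells and 155 ± 6.60 FPKM in WT cells at d4 (-2.58 ± 0.06), and 0.253 FPKM in KI cells and 2.76 FPKM in WT cells at d0 (-3.45 ± 0.27). Bmper, an extracellular BMP modulator, averaged 0.548 FPKM in KI cells and 4.52 FPKM in WT cells at d4 (-1.85 ± 0.13) and 1.09 FPKM in KI cells and 8.20 FPKM in WT cells at d0 (-2.94 ± 0.15). Ranbp3l, which exports Smads of the BMP branch from the nucleus, had 2 reads in KI and 1602 reads in WT libraries at d0, a ratio of WT over KI of 697 with an exact 95% interval of 193 to 5764, and Atoh8, a BMP-responsive transcription factor, averaged 0.730 FPKM in KI cells and 5.54 FPKM in WT cells (-2.94 ± 0.18). Thbs1, an activator of latent TGF-beta, and Ldlrad4, an inhibitor of TGF-beta signalling, were also called lower at d0 (-2.03 ± 0.10 and -1.98 ± 0.20). Of the 8 genes tested at d0 that the wider list holds as transcriptional targets, Atoh8 and Ldlrad4 were called lower and Msx2 higher. By the adjusted p alone, 2 of the 8 were lower and 3 higher. At d4, the TGF-beta-responsive genes Ctgf (-2.13 ± 0.12) and Pmepa1 (-1.28 ± 0.04) and the ligand Gdf15 (-1.77 ± 0.08) were called lower, while Gdf15 was called higher at d0 (1.34 ± 0.14).

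By the GENCODE annotation, 18 of the 52 members share exon bases with another gene, of which 15 with a gene on the opposite strand. Among the called members these are Bmp4 (89 bases), Gdf5, Tgfb2 (124 bases), Tgfb3, Fst (115 bases), Fstl3, Ltbp2 (764 bases), Rgma (258 bases) and Tgfbr3. The sources used here do not say whether reads were counted by strand, and reads of such partners could then not be told apart.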

How the data were processed

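Messenger RNA of 12 libraries was sequenced, 3 for each genotype and day. The authors deposited read counts per gene, with no normalization, and FPKM values, which they scaled by gene length and, as the deposited values show, by a divisor proportional to a DESeq2-type size factor of the library within each day, not to its total reads. Per the submitters' processing notes, mm10 and DESeq2 1.20.0 were used. No source used here names the aligner or counter, or says if counting was stranded. The deposited WT d4 table had 3 count columns that bore the names of KI d4 libraries and equalled their counts for all 24787 genes, so WT d4 read counts were worked back from the deposited FPKM and were whole within 0.01 reads. Columns of the authors' own fold changes and p-values were not used.

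At d4, log2(FPKM + 1) was tested with limma 3.58.1, keeping genes with at least 0.5 FPKM in 3 libraries. The d0 genotype comparison, the day comparisons and the interaction were tested on read counts with the edgeR 4.0.16 quasi-likelihood test after TMM normalization and filterByExpr, in R 4.3.3. The fits of 2 groups used their 6 libraries, and the interaction used all 12. P-values were adjusted over all genes tested by the Benjamini-Hochberg method, and calls required both an adjusted p below 0.05 and a log2 fold change beyond 1 in size. Exact 95% intervals of read ratios and the floor of 3 reads over a group cover counting error only. The procedure was also run on simulated data, with the same spread for all genes and changes placed only in well-covered genes. A minimum recovery was required of the edgeR fits and not of the limma test at d4. That run does not cover low genes.

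The members and the gene lists were chosen with earlier results of these data known. Values per library are given for members called in a genotype comparison at 1 FPKM or more in the higher group and for Id genes. Of members not called, up to 3 per role with the highest level could be named, and of the wider list up to 6 called genes per day. Other genes named, such as Tgfbr1, Nog, Chrd, Acvr2b, the low ligands and those of the closing section, were chosen after their values were seen. Alternatives were DESeq2 (version 1.42.0), its size factors, other filters, pseudocounts of 0.1 and 5, quantile normalization, all 12 libraries in 1 fit, a replicate block, no fold threshold and leaving out each library.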

Additional observations from a re-analysis of the deposited data

Results flagged for a closer look

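The genotype difference of 12 members differed between the days by the edgeR interaction term, the log2 change by d4 in KI cells minus that in WT cells. The receptors and co-receptors had Tgfbr1 at 1.27, Tgfbr2 at 1.27, Rgmb at 1.27, Tgfbr3 at 1.19 and Acvr2b at 1.12. The ligand Inhbb had 1.78 and the ligand Bmp6 -4.67. The antagonists of activins had -3.51 for Fst and -1.62 for Fstl3. Smad6 had 1.16, and the Id genes had opposite signs, with -1.46 for Id2 and 1.51 for Id3. The terms of Bmp6, Smad6 and Acvr2b were lost without single libraries, and Bmp6 passed the filter through the WT d4 libraries alone. Groups of 3 libraries were not tested for outlying samples.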

How the results depend on the processing

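No called value of a member changed sign under any alternative run. At d4, a pseudocount of 5 left 7 members called, all 7 lower, without Gdf5, Id2, Tgfb2 and Tgfb3, and quantile normalization called 1 member higher, Rgmb, and lost Tgfb2 and Tgfb3. With the adjusted p alone, 34 members passed at d4 (11 higher, 23 lower), 31 at d0 (3 higher, 28 lower), 33 between the days in KI cells (23 higher, 10 lower), 34 in WT cells (20 higher, 14 lower) and 28 by the interaction (20 positive, 8 negative). Over all genes, the 1025 calls at d4 became 2258 with edgeR on reads, 1690 with a pseudocount of 0.1 and 439 with 5. With the adjusted p alone they were 7386 at d4, 6164 at d0, 10347 and 8971 between the days in KI and WT cells, and 6835 by the interaction, against 1025, 1704, 4738, 3663 and 2514.

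Leaving out each library in turn gave 8 to 12 members called at d4 (0 higher, 8 to 12 lower), 11 to 14 at d0 (1 higher, 10 to 13 lower), 20 to 21 in KI cells between the days (14 to 15 higher, 6 lower), 13 to 16 in WT cells (8 higher, 5 to 8 lower) and 9 to 12 by the interaction (6 to 9 positive, 3 to 4 negative). Whichever WT d4 library was left out, Bmp4, Bmp6 and Gdf5 fell below the d4 filter and were not tested. Tgfb2 was lost without WT d4 replicate 1 and Tgfb3 without KI d4 replicate 2 or WT d4 replicate 3. Between the days, single libraries ended the calls of Bmp1, Bmpr2 and Tgfbr3 in KI cells and of Id1 and Id2 in WT cells. The cause of these changes was not tested.

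Replicate numbers were not used as pairs in the main fits. In their deviations from the group means, same-numbered d0 libraries correlated at -0.29, -0.10 and 0.04. KI replicate 1 with WT replicate 2 gave 0.21, and KI replicate 2 with WT replicate 1 gave 0.24. Such deviations are not independent within a group, so these values cannot decide whether libraries were paired. With the replicate block, 11 members were called at d4, 13 at d0 (Tgfb2 added), 21 in KI cells, 14 in WT cells and 11 by the interaction (Bmp6 lost, at -4.64 with an adjusted p of 0.0503 by edgeR). Depth limits Bmp3, Bmp5, Gdf6, Mstn and Id4, which had few or no reads.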

Other observations

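Among the wider pathway genes, the change by d4 of Thbs1 and Ctgf differed between the genotypes. Thbs1, an activator of latent TGF-beta, averaged 137 ± 2.64 FPKM in KI cells and 107 ± 5.87 FPKM in WT cells at d4, and 24.5 ± 2.64 FPKM in KI cells and 98.5 ± 4.23 FPKM in WT cells at d0 (SD, n = 3 each), with an interaction term of 2.34 ± 0.11. Ctgf averaged 6.35 ± 1.29 FPKM in KI cells and 30.9 ± 0.888 FPKM in WT cells at d4, and 7.13 ± 0.253 FPKM in KI cells and 6.99 ± 2.14 FPKM in WT cells at d0, with a term of -2.32 ± 0.22. Of the wider list, 6 of 54 genes tested had a positive and 7 a negative term past the thresholds, against 8.68% and 7.95% of all genes tested.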
